A study of Homo sapiens with 9 samples.

Results

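RUNX1, RUNX2 and RUNX3 encode the human RUNX transcription factors, and CBFB encodes their shared partner. These 4 genes were taken by name from the 60623 genes in the expression files, and each name had 1 identifier. RNA was sequenced from 3 stable lines of U937, a human monocytic leukemia cell line, before (0 h) and 12 and 48 h after the addition of doxycycline (5 μg/ml). The AML1-ETO line (clone #4) and the ETO2-GLIS2 line (clone #14) each carried an HA-tagged fusion cDNA in a retroviral vector switched on by doxycycline, and the third line carried the empty vector. All 3 lines came from U937 cells by the same transduction and selection of single clones. Each fusion was sequenced in 1 clone, so fusion and clone cannot be told apart in any difference between lines, at any time. Each of the 9 conditions had 1 library, so no value has a replicate error, no p-value was computed, and all intervals are 95% intervals that cover counting error only. A level is said to have risen or fallen where the interval of the ratio of 2 libraries lies on 1 side of 0 on the log2 scale, or, for the gene lists, where it passed 2-fold, and neither shows a change beyond the variation between cultures.

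The RUNX proteins bind DNA through a conserved Runt domain, and CBFβ, which does not touch DNA itself, strengthens that binding. RUNX1 (also called AML1) is required for the formation of blood stem cells and for megakaryocyte and lymphoid maturation, RUNX2 directs bone formation, and RUNX3 acts in T cells, natural killer cells and neurons. AML1-ETO joins the Runt domain of RUNX1 to nearly the whole of ETO, a corepressor encoded by RUNX1T1, whereas ETO2-GLIS2 joins the related corepressor ETO2, encoded by CBFA2T3, to the zinc fingers of GLIS2 and holds no RUNX sequence.

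The genes lie on different chromosomes of GRCh38.p14. RUNX1 (ENSG00000159216) spans chr21:34787801-35049302, RUNX2 (ENSG00000124813) spans chr6:45328330-45551082, RUNX3 (ENSG00000020633) spans chr1:24899511-24965138, and CBFB (ENSG00000067955) spans chr16:67029149-67101058. Exons of other genes covered 0% of the exon bases of each of the 4 genes on either strand in an annotation of GRCh37.

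RUNX proteins bind DNA at TGTGGT and TGCGGT, so the RefSeq promoter windows of the family (250 bases before the start to 50 after it, GRCh38.p14) were searched for these letters on both strands. The RUNX2 window at chr6:45328080-45328379 held 5 matches, 4 of TGTGGT and 1 of TGCGGT. The RUNX3 window at chr1:24964961-24965260 held 2 matches of TGTGGT. No match was found in the RUNX1 window at chr21:34888650-34888949, in the RUNX2 window at chr6:45422025-45422324 or in the RUNX3 window at chr1:24930227-24930526. The distal RUNX1 promoter and the CBFB promoter were not analysed here. Of 35116 windows of all genes, 19.6% held either motif at least 1 time and 2.32% held 2 or more. In RUNX2 and in RUNX3 a pair of TGTGGT matches stood on the reverse strand, starting 8 bases apart, an arrangement found in 4 of all windows (0.0114%), the others belonging to OR52N2 and LOC105369321. The strand and spacing counted were those of the RUNX2 and RUNX3 pairs, so this share is a description and not a test. The pair lay at chr6:45328342-45328367 (plus strand), after the RUNX2 start of this window, and at chr1:24965120-24965145 (minus strand), before the RUNX3 start of this window. The sites are printed because RUNX2 and RUNX3 moved in opposite directions in AML1-ETO cells, and capitals mark the motif letters, with ACCACA being TGTGGT read on the other strand:
RUNX2 pair site: aacaACCACAgaACCACAagTGCGGT
RUNX3 pair site: ctcaACCACAgaACCACAaggccagg
The longest run shared by these sites was 18 bases. The 250 bases before the same RUNX2 start, at chr6:45328080-45328329, held the remaining 2 matches of this window, starting 191 and 87 bases before the start:
RUNX2 upstream region: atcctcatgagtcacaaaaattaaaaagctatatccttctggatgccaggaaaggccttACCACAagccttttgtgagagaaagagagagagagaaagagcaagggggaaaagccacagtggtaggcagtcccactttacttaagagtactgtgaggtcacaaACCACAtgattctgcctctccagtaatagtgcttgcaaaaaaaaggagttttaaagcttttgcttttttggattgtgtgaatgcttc
A match of letters does not show that a protein was bound there, and a link of these sites to the changes of RUNX2 and RUNX3 was not tested.

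The labels were checked against the fusion genes before the RUNX genes were compared. RUNX1T1 stood at 0.512, 22.2 and 28.7 FPKM (reads scaled by exon length and by the library's total) at 0, 12 and 48 h in AML1-ETO cells, and at no more than 0.0240 FPKM in the other 6 libraries. In ETO2-GLIS2 cells, CBFA2T3 stood at 4.10, 11.4 and 12.6 FPKM and GLIS2 at 2.39, 6.79 and 8.85 FPKM over the same times. The libraries held 15136399 to 18443638 reads on genes. Of 10 markers listed as monocytic, among them the granule protease gene ELANE, 5 were at or above 1 FPKM in all 9 libraries and 3 were under 1 FPKM in all 9. The defining T cell markers CD3D and CD3E, the B cell marker MS4A1, the erythroid marker HBB and the megakaryocytic markers GP9 and PF4 were listed at 0 in all 9 libraries, although 1 of the 3 B cell markers was at or above 1 FPKM in all 9 and the summed level of these 3 was 1.91 to 5.77 FPKM.

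By the FPKM of each gene, RUNX3 was the highest of the family in every library and RUNX2 the lowest in all but the AML1-ETO library at 48 h. In AML1-ETO cells the RUNX1 level includes reads of the construct, divided by the whole RUNX1 exon length. Before induction, RUNX3 stood at 62.5 FPKM with the empty vector, 63.1 FPKM in the AML1-ETO clone and 47.5 FPKM in the ETO2-GLIS2 clone. RUNX1 stood at 19.3, 17.4 and 16.6 FPKM, and RUNX2 at 10.1, 9.86 and 8.65 FPKM, in the same order of lines. CBFB lay between RUNX3 and RUNX1, at 29.1, 29.1 and 32.4 FPKM. Ranked from high to low, RUNX3, CBFB, RUNX1 and RUNX2 followed each other in this order in 7 of 9 libraries with separate counting intervals. In the ETO2-GLIS2 library at 48 h, RUNX3 (40.4 FPKM, 39.0 to 41.9) and CBFB (39.8 FPKM, 38.4 to 41.2) had overlapping intervals. In the AML1-ETO library at 48 h, CBFB (18.6 FPKM, 17.6 to 19.6) and RUNX2 (18.5 FPKM, 17.8 to 19.3) overlapped, and both stood above RUNX1 (16.8 FPKM, 16.3 to 17.3). In these bulk libraries, fewer cells with a transcript and less of it per cell cannot be told apart. All 4 genes were well expressed: between 75.5% and 97.9% of the genes listed above 0 in a library had a lower FPKM.

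RUNX3 fell in AML1-ETO cells. It stood at 63.1 FPKM (4736 reads) at 0 h, 37.4 FPKM (2611 reads) at 12 h and 29.7 FPKM (2045 reads) at 48 h. By 48 h its log2 fold change was -1.09 (-1.16 to -1.01). Within this line the larger step came by 12 h, when the log2 fold change was -0.76 (-0.83 to -0.69), and the step between 12 and 48 h was -0.33 (-0.42 to -0.25). RUNX3 at 48 h against 0 h was the only value past 2-fold among the 4 genes in this line, and 28.6% of the 12030 genes with a mean of at least 1 FPKM passed 2-fold there, with 11.3% of the 12030 past it downward. In the same comparison 10.2% of genes had a lower log2 fold change than RUNX3. At 12 h no member passed 2-fold, with 8.97% of all genes past it, and 3.8% of the 500 genes nearest to RUNX3 in mean level had a lower log2 fold change.

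The empty vector line did not share this fall at 48 h. Its RUNX3 values were 62.5, 56.8 and 75.2 FPKM at 0, 12 and 48 h, with log2 fold changes of -0.14 (-0.20 to -0.07) at 12 h and 0.27 (0.21 to 0.33) at 48 h. In ETO2-GLIS2 cells RUNX3 went from 47.5 to 37.5 and 40.4 FPKM, with log2 fold changes of -0.34 (-0.41 to -0.27) and -0.24 (-0.30 to -0.17). Subtracting the empty vector line left -0.62 (-0.71 to -0.53) at 12 h and -1.36 (-1.45 to -1.26) at 48 h for AML1-ETO, so that with the subtraction the larger step no longer came by 12 h. For ETO2-GLIS2 it left -0.50 (-0.59 to -0.41) at 48 h. These subtractions share the empty vector libraries. Compared directly, the AML1-ETO log2 fold change at 48 h was lower than that of ETO2-GLIS2 by a difference of -0.85 (-0.95 to -0.75). The uninduced ETO2-GLIS2 clone already stood below the empty vector line in RUNX3, with a log2 ratio of -0.39 (-0.46 to -0.33), whereas the uninduced AML1-ETO clone had a ratio of 0.02 (-0.04 to 0.07).

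CBFB, which encodes the non-DNA-binding subunit, fell in AML1-ETO cells only among the 3 lines at 48 h. There it stood at 29.1 FPKM (2246 reads), 26.2 FPKM (1879 reads) and 18.6 FPKM (1314 reads) at 0, 12 and 48 h. The log2 fold change was -0.15 (-0.24 to -0.06) at 12 h and -0.65 (-0.75 to -0.55) at 48 h. The larger step of CBFB within this line, -0.50 (-0.60 to -0.39), came between 12 and 48 h, and with the empty vector line subtracted its values were -0.33 (-0.45 to -0.21) at 12 h and -1.07 (-1.19 to -0.94) at 48 h. CBFB of empty vector cells climbed over the same times, with 29.1, 32.8 and 38.8 FPKM and 0.42 (0.34 to 0.50) on the log2 scale at 48 h. The ETO2-GLIS2 line went from 32.4 to 33.1 and 39.8 FPKM, with 0.30 (0.22 to 0.37) at 48 h. The difference between the fusion lines at 48 h was -0.95 (-1.07 to -0.82), and its interval overlapped that of RUNX3. For ETO2-GLIS2 less the empty vector line it was -0.12 (-0.23 to -0.01).

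RUNX2, the family member best known from osteoblasts, rose in both fusion lines by similar amounts at 48 h and at different times. In AML1-ETO cells it stood at 9.86 FPKM (1339 reads), 14.2 FPKM (1797 reads) and 18.5 FPKM (2309 reads). In ETO2-GLIS2 cells it stood at 8.65 FPKM (1307 reads), 8.74 FPKM (1281 reads) and 14.9 FPKM (2000 reads). The empty vector line moved less, with 10.1, 11.9 and 11.8 FPKM, which is 0.23 (0.12 to 0.34) on the log2 scale at 48 h. At 12 h the log2 fold change was 0.53 (0.42 to 0.63) with AML1-ETO and 0.02 (-0.10 to 0.13) with ETO2-GLIS2, a difference of 0.51 (0.36 to 0.66). At 48 h it was 0.91 (0.81 to 1.01) and 0.79 (0.69 to 0.89), a difference of 0.12 whose interval, -0.02 to 0.26, held 0. Neither rise passed 2-fold. In ETO2-GLIS2 cells none of the 4 genes passed 2-fold, with 4.49% of all genes past it at 12 h and 13.3% at 48 h, and 84.5% of genes had a lower log2 fold change than RUNX2 at 48 h, against 80.0% in AML1-ETO cells.

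RUNX1 rose in the empty vector and ETO2-GLIS2 lines. In empty vector cells it stood at 19.3 FPKM (4892 reads), 21.9 FPKM (5158 reads) and 26.2 FPKM (6284 reads), and had risen by 0.44 (0.39 to 0.50) on the log2 scale at 48 h. In ETO2-GLIS2 cells it stood at 16.6 FPKM (4771 reads), 19.1 FPKM (5321 reads) and 25.3 FPKM (6456 reads), with 0.61 (0.56 to 0.66). These lines ended close together, the log2 ratio of ETO2-GLIS2 to empty vector at 48 h being -0.05 (-0.10 to 0.00148). None of the 4 genes passed 2-fold in empty vector cells, where 7.53% of all genes did at 12 h and 11% at 48 h. Over all genes the median change at 48 h was 0.16, 0.22 and 0.16 on the log2 scale in the empty vector, AML1-ETO and ETO2-GLIS2 lines, which is the level to set small rises against on the FPKM scale.

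In AML1-ETO cells RUNX1 stayed within a narrow band, at 17.4 FPKM (4502 reads), 17.8 FPKM (4267 reads) and 16.8 FPKM (3979 reads). Its log2 fold change was 0.03 (-0.03 to 0.09) at 12 h and -0.05 (-0.12 to 0.01) at 48 h, and both intervals held 0, while rescaling the libraries by the median ratio of all genes gave -0.12 and -0.20. The difference from the empty vector line at 48 h was -0.50 (-0.58 to -0.41), and from the ETO2-GLIS2 line -0.66 (-0.75 to -0.58). These reads come from the cell's own RUNX1 and from the construct, which the files do not separate.

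The size of the construct's contribution to RUNX1 was calculated from RUNX1T1, since these cells carried almost no RUNX1T1 reads otherwise. The RUNX1 part of AML1-ETO corresponds to 532 coding bases in the first 3 coding exons of the transcript RUNX1-202, and the RUNX1T1 part was taken as a coding sequence of 1731 bases (RUNX1T1-202). Other coding sequences of RUNX1T1 near this length have 1701 to 1989 bases, and the exact cDNA of the construct is not given in the sources used here. RUNX1T1 rose from 115 to 4629 and 5915 reads at 0, 12 and 48 h. If the construct were covered evenly, its RUNX1 part would give 35.3, 1423 and 1818 reads, which is 0.785%, 33.3% and 45.7% of all RUNX1 reads. The reads left for the cell's own gene would be 4467, 2844 and 2161, equal to 17.3, 11.8 and 9.12 FPKM, with a log2 fold change of -0.55 at 12 h and -0.92 at 48 h. Neither even coverage nor the choice of transcript was tested, so these values are a calculation and not a measurement of endogenous RUNX1.

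Between lines at the same time, the 4 genes differed little before induction and more at 48 h. At 0 h none passed 2-fold in AML1-ETO cells against the empty vector line or in ETO2-GLIS2 cells against it, where 4.9% and 6.41% of all genes did. At 48 h, RUNX3 and CBFB of the AML1-ETO line were past 2-fold below the empty vector line, with log2 ratios of -1.34 (-1.41 to -1.27) and -1.06 (-1.16 to -0.97), in a comparison where 23.5% of genes passed 2-fold and 11.7% passed it downward. RUNX1 was also lower, at -0.64 (-0.70 to -0.59), and RUNX2 higher, at 0.65 (0.55 to 0.74). Against the ETO2-GLIS2 line at 48 h, CBFB was past 2-fold at -1.10 (-1.20 to -1.01), where 21.2% of genes passed 2-fold and 11.6% passed it downward. The ETO2-GLIS2 line held no member past 2-fold from the empty vector line at 48 h, a comparison in which 6.67% of genes passed. RUNX3 came closest there, at -0.90 (-0.96 to -0.83), and 3.10% of all genes and 0.8% of the 500 genes nearest to it in mean level had a lower ratio.

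The make-up of the family therefore shifted. RUNX3 accounted for 69.8%, 53.9% and 45.7% of the summed FPKM of the 3 RUNX genes at 0, 12 and 48 h in AML1-ETO cells, while the share of RUNX2 went from 10.9% to 20.5% and 28.5%. In ETO2-GLIS2 cells the share of RUNX3 went from 65.3% to 57.4% and 50.1%, and that of RUNX2 from 11.9% to 13.4% and 18.5%. The empty vector line kept RUNX3 between 62.7% and 68.0% and RUNX2 between 10.5% and 13.2%. The ratio of RUNX3 to RUNX2 FPKM thus dropped from 6.41 to 2.63 and 1.60 with AML1-ETO and from 5.50 to 4.29 and 2.71 with ETO2-GLIS2, and was 6.19, 4.76 and 6.35 in empty vector cells. The summed FPKM was 90.4, 69.4 and 65.0 with AML1-ETO, 91.9, 90.7 and 113 with the empty vector, and 72.8, 65.4 and 80.7 with ETO2-GLIS2. In AML1-ETO cells the summed FPKM and the RUNX1 share, 19.3% at 0 h and 25.8% at 48 h, include reads of the construct. Those reads come from a RUNX1 part taken as 532 bases but are divided by the whole RUNX1 exon length of 15574 bases. The sum is therefore not a level of all transcripts that hold a Runt domain. These shares rest on division by exon length: in reads, RUNX1, whose exon length in the files is 15574 bases against 8192 for RUNX2 and 4523 for RUNX3, held 42.6% to 56.4% of the family's reads.

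CBFB stayed below the summed RUNX level in every library. Its FPKM was 0.322, 0.377 and 0.285 times the RUNX sum at 0, 12 and 48 h in AML1-ETO cells and 0.316, 0.362 and 0.342 times in empty vector cells. In ETO2-GLIS2 cells the ratio was 0.445, 0.506 and 0.494, higher than in the other 6 libraries already at 0 h. In reads, without division by length, the ratio with AML1-ETO was 0.212, 0.217 and 0.158. In AML1-ETO cells the RUNX sum behind both ratios includes reads of the construct. A ratio of CBFB to the cell's own RUNX genes was therefore not measured there.

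Genes around the family were followed in 7 lists with 95 genes, as counts past 2-fold at 48 h with a mean of at least 1 FPKM. Of 24 genes that RUNX1 is known to regulate in blood cells, 14 reached that mean in AML1-ETO cells, where 2 rose and 8 fell past 2-fold, beside 17.3% and 11.3% of all genes. Their median log2 fold change was -2.03, beside 0.22 for all genes. PRTN3, CTSG and ELANE, which encode neutrophil granule proteases, went from 902 to 20.7 FPKM, from 83.8 to 2.59 FPKM and from 520 to 66.7 FPKM, log2 fold changes of -5.45, -5.01 and -2.96. CEBPA, a master regulator of granulocytes, went from 98.5 to 6.62 FPKM, or -3.89. PRTN3 and ELANE also fell in empty vector cells, by log2 fold changes of -2.53 and -1.45, whereas CTSG and CEBPA stood at 0.40 and 0.44 there.

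Fewer genes of the same list passed 2-fold in the other lines, where the share that fell was still above that of all genes. In ETO2-GLIS2 cells, 2 of 13 genes rose and 4 fell, beside 10.8% and 2.54% of all genes, with a median of -0.07 beside 0.16 for all genes, and in empty vector cells 1 of 13 rose and 2 fell, beside 8% and 2.99% of all genes, with a median of 0.40 beside 0.16. ETO2-GLIS2 cells shared the fall of PRTN3 (-2.55) and ELANE (-2.01), had CEBPA go from 49.2 to 24.5 FPKM, and raised ITGAL, an integrin chain, from 7.24 to 26.8 FPKM (1.89), as the empty vector line did (2.56). The summed level of the 10 markers listed as monocytic, 3 of which were under 1 FPKM in all 9 libraries, was 1592, 1959 and 135 FPKM at 0, 12 and 48 h in AML1-ETO cells. ELANE, which encodes a neutrophil granule protease, gave 520, 544 and 66.7 FPKM of it, so the sum is not a level of monocytic genes alone. The sum was 1025, 1225 and 656 FPKM with the empty vector and 1875, 2000 and 566 FPKM with ETO2-GLIS2. ELANE, SPI1, CSF1R and MPO are in both lists, and the part of cell state in the list's change was not tested.

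**Figure D1:**
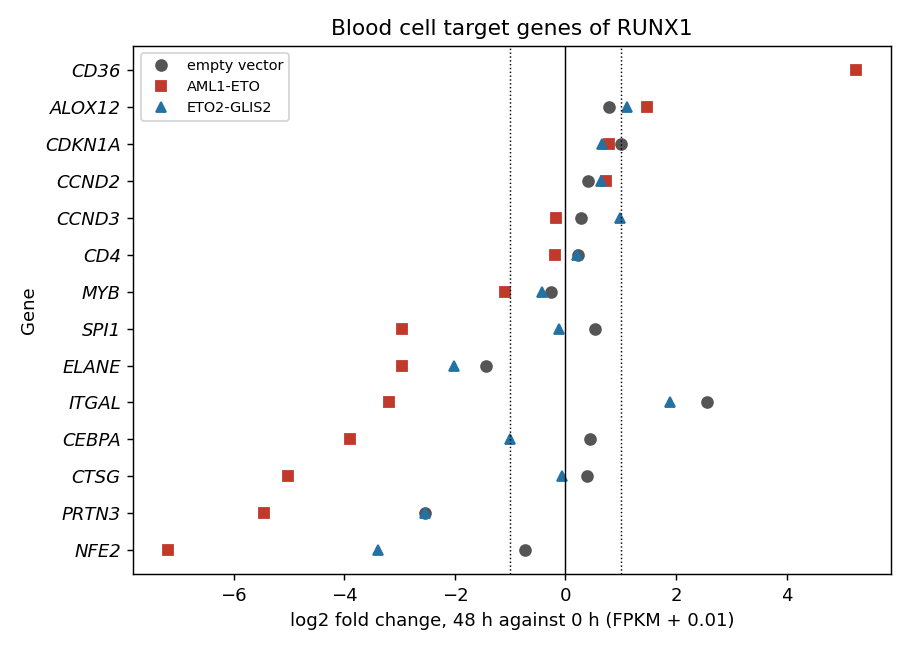
The log2 fold change at 48 h against 0 h (x axis, FPKM with pseudocount 0.01) of the blood cell target genes of RUNX1 with a mean of at least 1 FPKM in AML1-ETO cells (y axis). Each point is a comparison of 2 libraries, colored by line, and dotted lines mark 2-fold. In AML1-ETO cells 8 genes lie left of the lower dotted line, with PRTN3 at -5.45 and CTSG at -5.01. CD36 is drawn for the AML1-ETO line alone.

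Target genes named for the other RUNX proteins gave little to compare. Of 9 skeletal targets of RUNX2 only VEGFA reached a mean of 1 FPKM. VEGFA, which encodes an angiogenic growth factor, had log2 fold changes of 1.71 with the empty vector, 0.86 with AML1-ETO and 2.23 with ETO2-GLIS2. Of 8 lymphoid targets of RUNX3, 2 reached that mean and none passed 2-fold in any line.

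Proteins that work with RUNX on DNA were followed in the same way, in a comparison where 28.6% of all genes passed 2-fold with AML1-ETO and 13.3% with ETO2-GLIS2. Of 16 corepressors, 15 reached the mean in AML1-ETO cells, where RUNX1T1, which the construct carries, rose. CBFA2T3, which encodes ETO2, went from 5.26 to 0.220 FPKM in AML1-ETO cells, a log2 fold change of -4.52 (-5.30 to -3.94). In ETO2-GLIS2 cells only CBFA2T3 passed 2-fold in this list, and it is carried by that construct.

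Of 12 coactivators and modifying enzymes that reached the mean, 1 passed 2-fold with AML1-ETO, below the share of all genes. This gene, KMT2A, a histone methyltransferase, rose in AML1-ETO cells from 3.28 to 7.36 FPKM (1.16, interval 1.08 to 1.25), and none passed 2-fold in ETO2-GLIS2 cells. Of 11 factors that bind DNA beside RUNX, 4 fell in AML1-ETO cells and none rose, beside 11.3% and 17.3% of all genes. The ETS factor ELF4 went from 21.6 to 6.93 FPKM (-1.64) and the basic helix-loop-helix factor LYL1 from 47.7 to 18.5 FPKM (-1.37), whereas in empty vector cells they stood at 0.39 and 0.23. The AP-1 subunits FOS (-3.34) and JUN (-2.21) also fell in empty vector cells (-4.20 and -1.21), and FOS fell in ETO2-GLIS2 cells (-2.99).

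Of 7 genes neighboring the RUNX genes, 4 reached the mean in each fusion line, and 1 of them, CLIC4, which lies beside RUNX3, passed 2-fold upward in both, where 17.3% of all genes did with AML1-ETO and 10.8% with ETO2-GLIS2. It went from 48.7 to 108 FPKM with AML1-ETO (1.15, interval 1.09 to 1.21) and from 64.6 to 135 FPKM with ETO2-GLIS2 (1.06, interval 1.02 to 1.11), and from 67.4 to 128 FPKM in empty vector cells (0.92). RUNX3 and CLIC4 thus moved in opposite directions at 48 h in AML1-ETO cells (RUNX3 -1.09) and in ETO2-GLIS2 cells (RUNX3 -0.24). In empty vector cells both were higher at 48 h (RUNX3 0.27). At 12 h their directions were opposite in all 3 lines. RUNX3 was then at -0.14, -0.76 and -0.34 and CLIC4 at 0.67, 0.51 and 0.42 in the empty vector, AML1-ETO and ETO2-GLIS2 lines.

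The pattern of each gene over the 9 libraries was compared with 7156 genes by Pearson correlation of log2 FPKM, as a description in which the libraries share lines and times. The genes most like RUNX1 were PPP1R18 (0.99), C9orf64 (0.98) and ELMSAN1 (0.97), and those most like RUNX2 were GLI4 (0.97), C3orf80 (0.97) and TBKBP1 (0.97). RUNX3 was closest to MIDN (0.96), FURIN (0.92) and FAM110A (0.92), and CBFB to TNFRSF10B (0.98), MBP (0.98) and SMAD4 (0.98). The RUNX3 pattern was the least common, with 5 genes above 0.9, beside 44 for RUNX1, 119 for RUNX2 and 158 for CBFB. MIDN, which encodes midnolin, stood at 14.8, 7.54 and 7.52 FPKM in AML1-ETO cells, at 14.2, 14.5 and 16.2 FPKM in empty vector cells, and at 9.37, 7.67 and 8.41 FPKM in ETO2-GLIS2 cells, so it shared with RUNX3 the early drop and the lower start of the ETO2-GLIS2 clone. TNFRSF10B, which encodes a TRAIL receptor, stood at 22.3, 14.2 and 7.27 FPKM in AML1-ETO cells and rose from 20.3 to 35.6 FPKM in empty vector cells and from 21.4 to 32.9 FPKM in ETO2-GLIS2 cells. Among the 4 genes themselves, the highest correlation over the 9 libraries was 0.74, between RUNX1 and CBFB, and the lowest was -0.49, between RUNX2 and RUNX3.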

How the data were processed

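Per the labels and the study's methods, HISAT2 (2.0.5) and the build hg38 served for alignment, SAMtools (1.7) for file handling and HTSeq (0.9.1) for gene counts, from which the authors made the deposited FPKM of every gene. The annotation version is not given in the sources used here. The 4 members and all gene lists were chosen with earlier results of these data known.

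Levels are the deposited FPKM, and log2 fold changes add a pseudocount of 0.01. Reads behind the values were recovered from exon lengths (GENCODE on GRCh37) as whole multiples of what 1 read is worth, within 0.02 reads plus a small term that grew with the read count. At the annotated length this held for 17769 (75.3%) of 23597 genes above 0 in at least 3 libraries. Where it did not hold for a named gene, the shortest length that gave whole reads was used. This was so for RUNX3, with 4523 bases used and 4922 annotated. The step was tested on simulated data. Recovered reads gave exact Poisson intervals for levels, exact Clopper-Pearson 95% intervals for ratios and Wald intervals for differences of log2 fold changes. The reads carry no molecular identifiers and need not be separate molecules, and variation between cultures is not covered.

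A gene was counted past 2-fold with a mean of at least 1 FPKM in the 2 libraries. Named list genes were up to 4 per list and fusion line with the largest change at 48 h, past 2-fold with a mean of at least 5 FPKM; VEGFA in the AML1-ETO line was added after its values were seen. Genes compared by pattern had a mean of at least 5 FPKM and at least 1 FPKM in each library, and the 3 closest are named. Sequences and coordinates come from RefSeq tables for GRCh38.p14. Alternatives covered the reference library, the scaling, the pseudocount, the fold threshold, the filter on low values, the division by length and the construct's reads. Python (3.11.15), numpy (2.4.6), pandas (2.3.3), scipy (1.17.1) and matplotlib (3.10.9) were used. ChIP-seq was not analysed here, and some genes of the lists are not reported here.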

Additional observations from a re-analysis of the deposited data

Results flagged for a closer look

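These differences are listed because the log2 fold changes at both 12 and 48 h had opposite signs in the lines compared. With 1 library per condition, none of these differences was tested against replicate error. CBFB differed by -0.95 at 48 h between the AML1-ETO line (-0.15 at 12 h and -0.65 at 48 h) and the ETO2-GLIS2 line (0.03, which rescaling by the median ratio turned to -0.07, and 0.30), and by -1.07 between the AML1-ETO line and the empty vector line (0.17 and 0.42). CBFA2T3 differed by -6.14 between the fusion lines, with -1.20 and -4.52 in the AML1-ETO line beside 1.47 and 1.62 in the ETO2-GLIS2 line, where the construct carries it. The ETS factor gene ELF4 differed by -2.06, with -0.69 and -1.64 in the AML1-ETO line beside 0.21 and 0.42 in the ETO2-GLIS2 line.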

How the results depend on the processing

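No paired analysis was possible because each condition had 1 library. No log2 fold change of the 4 genes past 2-fold turned its direction, and pseudocounts of 0.1 and 1 FPKM moved no value beyond its counting interval. Values at 48 h that moved further follow. In the empty vector line, rescaling gave 0.31 for RUNX1, 0.10 for RUNX2, 0.14 for RUNX3 and 0.28 for CBFB, and 48 h against 12 h gave 0.26, -0.01, 0.40 and 0.24. RUNX1 in the AML1-ETO line was -0.20 after rescaling by the median ratio, -0.20 against the uninduced empty vector line, -0.64 against the empty vector line at 48 h, -0.50 with the empty vector line subtracted, and -0.92 with an even construct share of reads removed, an alternative chosen after seeing the data. RUNX1 in the ETO2-GLIS2 line was 0.48 rescaled, 0.39 and -0.049 against those 2 libraries, 0.17 subtracted and 0.41 against 12 h. RUNX2 in the AML1-ETO line was 0.76 rescaled, 0.65 against the empty vector line at 48 h, 0.68 subtracted and 0.38 against 12 h, and in the ETO2-GLIS2 line 0.65 rescaled, 0.57 and 0.33 against the empty vector line at 0 and 48 h, and 0.55 subtracted. RUNX3 in the AML1-ETO line was -1.24 rescaled, -1.34 against the empty vector line at 48 h, -1.36 subtracted and -0.33 against 12 h, and in the ETO2-GLIS2 line -0.37 rescaled, -0.63 and -0.90 against the empty vector line at 0 and 48 h, -0.50 subtracted and 0.11 against 12 h. CBFB in the AML1-ETO line was -0.80 rescaled, -1.06 against the empty vector line at 48 h, -1.07 subtracted and -0.50 against 12 h, and in the ETO2-GLIS2 line 0.16 rescaled, 0.45 and 0.037 against the empty vector line at 0 and 48 h, and -0.12 subtracted. Rescaling moved the median of all genes at 48 h from 0.16, 0.22 and 0.16 to 0.02, 0.07 and 0.02, and at 12 h it turned RUNX1 in the AML1-ETO line from 0.03 to -0.12, RUNX2 in the ETO2-GLIS2 line from 0.02 to -0.09 and CBFB in the ETO2-GLIS2 line from 0.03 to -0.07. Over the 7 lists, the 5 genes past 2-fold upward in the AML1-ETO line became 3 with a mean of at least 5 FPKM, 10 with no filter and 15 past 1.5-fold, and the 14 downward became 24 with no filter. In the ETO2-GLIS2 line the 5 upward became 8 with no filter, 13 past 1.5-fold and 3 rescaled, and the 5 downward became 8 with no filter. These counts come from 95 listed genes before any filter. The upward ones include the gene carried by the construct, RUNX1T1 or CBFA2T3. Shares of all genes at these other settings are not given, so the counts show only how the lists depend on the setting. The causes of these shifts were not tested beyond what each setting changes by construction.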
